A study of Mus musculus with 62 samples.

Results

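Apolipoproteins are the proteins on the surface of lipoprotein particles, and 9 of their genes together with *Mttp*, which encodes the microsomal triglyceride transfer protein, were examined in liver and fat of mice with and without *Fam13a*. These 10 genes (*Apoa1*, *Apoa2*, *Apoa4*, *Apoa5*, *Apob*, *Apoc1*, *Apoc2*, *Apoc3*, *Apoe* and *Mttp*) were taken by name from the 48795 genes of the deposited count table, and all 10 were found there.

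Hepatocytes load triglyceride and cholesteryl ester onto a newly made apolipoprotein B chain in the endoplasmic reticulum, a transfer that needs Mttp, and secrete the result as very low density lipoprotein. Apolipoprotein B stays with its particle for life, whereas the smaller apolipoproteins move between particles. They build high density lipoprotein (Apoa1 and Apoa2), raise or lower the activity of lipoprotein lipase (Apoa5 and Apoc2 against Apoc3), or bind the receptors that clear remnants (Apoe). Liver and intestine make most of them, and Apoe is also made by macrophages and adipocytes.

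RNA-seq was performed on 62 libraries from C57BL6 mice, either WT or carrying a whole-body *Fam13a* knockout allele (KO) in which exon 5 is removed. Males had liver, subcutaneous fat (SAT, inguinal) and visceral fat (VAT, gonadal) on chow or on a high fat diet (HFD), and females had both fat depots on HFD only, so a diet effect in fat is that of males and a sex effect that of mice on HFD. HFD took 45% of its calories from fat, began at 8 weeks of age and lasted 14 weeks, with collection at 22 weeks. The age of the chow mice of these libraries was not given in the sources used here. Any difference in age between the diets therefore cannot be told apart from diet. Each of the 16 groups held 4 libraries, except WT females with 3 per depot. All 8 chow liver libraries shared a sequencing lane that held none of the 8 HFD liver libraries, and in fat too no lane of a flow cell held both diets or both sexes, so diet or sex and lane cannot be told apart. Libraries are separate samples by their labels, but the labels do not tie tissues to a mouse.

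The libraries held 4959783 to 28723319 reads assigned to genes. Nuclear ribosomal RNA took from 0.0127% to 75.4% of a library, most of all in HFD liver KO replicate 3, and more than 20% in 8 libraries. CPM, counts scaled to library size with TMM factors within a tissue, compare a gene between libraries, and TPM, which also divide by exon length, compare genes with each other. *Fam13a* was still counted in KO libraries, the counts covering the whole gene and not exon 5 alone, with 21.9 ± 2.96 CPM (SD, n = 4) in WT and 12.6 ± 2.84 CPM (SD, n = 4) in KO liver on HFD. Its mean was lower in KO in each of the 8 sets of libraries of the same tissue, sex and diet, but every KO library lay below every WT library in 3 of them (HFD liver, and SAT of males on chow and on HFD), and in chow liver KO ranged from 19.6 to 39.1 CPM and WT from 28.7 to 46.6 CPM. In edgeR, *Fam13a* was called lower in KO in SAT on the log2 scale (-0.74, edgeR adjusted p = 0.0323) and not called in liver (-0.68, adjusted p = 0.235) or VAT (-1.01, adjusted p = 0.474), so these counts do not check the genotype label of a library where the ranges overlap. It was also called lower in both depots of males together (-1.12) and in SAT of males (-0.89). It was not called in VAT of males (-1.13) or in SAT (-0.40) or VAT (-0.75) of females. The hepatocyte markers *Alb*, *Ttr*, *Ahsg*, *Fgb* and *Hpx* were high in all 16 liver libraries, where their summed level lay between 39433 and 60409 CPM.

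The members lie in 5 places of GRCm38. A cluster on chromosome 9 holds *Apoa1* (ENSMUSG00000032083.8, chr9:46228580-46230466, plus strand), *Apoc3* (ENSMUSG00000032081.9, chr9:46232933-46235636, minus), *Apoa4* (ENSMUSG00000032080.6, chr9:46240696-46243459, plus) and *Apoa5* (ENSMUSG00000032079.11, chr9:46268633-46271919, plus). A cluster on the minus strand of chromosome 7 holds *Apoc2* (ENSMUSG00000002992.17, chr7:19671579-19677941), *Apoc1* (ENSMUSG00000040564.14, chr7:19689481-19692660) and *Apoe* (ENSMUSG00000002985.16, chr7:19696109-19699188). *Apoa2* (ENSMUSG00000005681.12, chr1:171225054-171226379, plus), *Apob* (ENSMUSG00000020609.14, chr12:7977648-8016835, plus) and *Mttp* (ENSMUSG00000028158.14, chr3:138089854-138144968, minus) lie apart. Of the 813 exon bases of *Apoc2*, 646 (79.5%) are shared with *Gm44805* on the same strand, so reads there could be left uncounted, and the values of *Apoc2* are uncertain. Genes on the opposite strand cover 69.8% of the exon bases of *Apoa4*, 20.8% of those of *Apoa5* and 9.49% of those of *Mttp*, and the strand setting of the counting was not given in the sources used here.

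The 250 bases before a RefSeq start site (GRCm38.p6) are shown for *Apoa5*, *Apob*, *Mttp* and *Apoe*, the 4 members other than *Apoc2* whose liver libraries on HFD and on chow did not overlap. RefSeq promoters were matched for 8 of the 10 members, not for *Apoc1* and *Apoc3*, and where RefSeq lists several starts the one nearest the GENCODE gene start is shown. Capitals mark the TATA box, spelled TATAAA, and the palindromic E-box, spelled CACGTG. Both were searched on both strands, as were the GC box, spelled GGGCGG, and the CCAAT box, spelled by its name, with positions counted back from -1 at the base before the start.
*Apoa5* (chr9:46268383-46268632, plus strand): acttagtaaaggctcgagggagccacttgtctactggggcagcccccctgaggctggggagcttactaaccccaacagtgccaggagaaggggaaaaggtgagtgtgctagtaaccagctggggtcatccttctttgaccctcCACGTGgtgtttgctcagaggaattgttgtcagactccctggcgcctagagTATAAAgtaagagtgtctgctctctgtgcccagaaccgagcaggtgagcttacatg
*Apob* (chr12:7977427-7977676, plus strand): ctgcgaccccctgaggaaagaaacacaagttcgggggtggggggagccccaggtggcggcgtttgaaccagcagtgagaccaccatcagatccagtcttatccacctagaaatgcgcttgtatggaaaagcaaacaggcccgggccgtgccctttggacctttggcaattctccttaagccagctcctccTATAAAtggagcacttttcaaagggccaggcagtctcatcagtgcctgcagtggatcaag
*Mttp* (chr3:138143419-138143668, minus strand): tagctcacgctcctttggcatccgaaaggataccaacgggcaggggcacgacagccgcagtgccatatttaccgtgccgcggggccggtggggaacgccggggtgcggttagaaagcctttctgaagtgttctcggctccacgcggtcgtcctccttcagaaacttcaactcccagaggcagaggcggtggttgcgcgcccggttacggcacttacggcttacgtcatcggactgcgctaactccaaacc
*Apoe* (chr7:19699189-19699438, minus strand): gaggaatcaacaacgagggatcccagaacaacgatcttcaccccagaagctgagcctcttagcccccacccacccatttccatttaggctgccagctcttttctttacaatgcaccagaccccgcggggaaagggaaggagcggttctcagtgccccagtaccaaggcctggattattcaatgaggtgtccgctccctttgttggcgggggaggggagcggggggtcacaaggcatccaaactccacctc

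The *Apoa5* window held a TATA box from position -56 and an E-box from -107, and the *Apob* window held a TATA box from -60. None of the 4 motifs was found in the windows shown for *Mttp*, whose RefSeq start lies 1550 bases from the GENCODE start, and of *Apoe*. Among 32851 RefSeq windows of this length, 12.4% held the TATA box, 6.02% the E-box, 32.7% the GC box and 33.8% the CCAAT box. The GC content was 54.4% for *Apoa5*, 55.2% for *Apob*, 61.2% for *Mttp* and 57.2% for *Apoe*, against a median of 52.4% over all windows. A match is a description of these letters and not a binding site.

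Per length, *Apoa2* was the most abundant member in WT liver on chow, at 10514 ± 1456 TPM (SD, n = 4). *Apoa1* followed at 7060.0 ± 1013 TPM and *Apoe* at 5432 ± 483 TPM, with overlapping libraries. *Apob*, at 4014 ± 317 TPM, ranked 4 per length, although in CPM its long transcript put it first. *Apob* overlapped *Apoc1* (3313 ± 357 TPM), *Apoc1* overlapped *Apoa4* (2338 ± 1134 TPM), and *Apoa4* overlapped *Apoc3* (1026 ± 114 TPM). *Apoc3* in turn overlapped *Apoa5* (857 ± 66.6 TPM), while *Mttp* stood below all of these at 164 ± 28.1 TPM. On HFD the order in WT liver had *Apoe* second, at 8558 ± 486 TPM, above *Apoa1* at 5534 ± 581 TPM with no overlap of libraries. Together the 10 members held 3.47% ± 0.240 of all TPM in WT liver on chow (SD, n = 4) and 3.90% ± 0.111 on HFD (SD, n = 4), with 3.48% ± 0.109 and 4.09% ± 0.197 in KO.

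On HFD, liver transcripts of *Apob* and *Mttp*, which build the particle, and of *Apoa1*, *Apoa4* and *Apoa5* were lower, and those of *Apoe*, *Apoc1*, *Apoc3* and *Apoa2* were higher. All 10 members passed an FDR of 10% in the comparison of 8 HFD with 8 chow libraries (edgeR's quasi-likelihood test with genotype as a covariate, Benjamini-Hochberg adjustment over 14476 genes), where 40.8% of all genes tested did. *Apob*, *Mttp*, *Apoa1*, *Apoa4*, *Apoa5* and *Apoc2* were lower, in a comparison in which 20.2% of genes were called lower. *Apoe*, *Apoc1*, *Apoc3* and *Apoa2* were higher, where 20.6% of genes were called higher. The median log2 fold change of the 10 was -0.50, against -0.00385 over all genes tested. The libraries on HFD and chow did not overlap for *Apoa5*, *Apob*, *Apoc2*, *Mttp* and *Apoe*, and overlapped for the other 5. The share of all genes whose libraries separate in this way was not determined, so this count describes the members only.

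*Apob* encodes the structural protein of very low density lipoprotein. In liver of mice on chow, *Apob* stood at 22047, 20111, 19995 and 23158 CPM in the 4 WT libraries and at 21435, 18854, 21359 and 17221 CPM in the 4 KO libraries. On HFD, *Apob* stood at 12488, 14076, 15167 and 13117 CPM in WT and at 14569.7, 15313, 14725 and 15359.9 CPM in KO. Every HFD library lay below every chow library, and the log2 fold change of HFD over chow was -0.52 ± 0.10 (SE, edgeR adjusted p = 0.000834). *Mttp* encodes the protein that lipidates apolipoprotein B. In liver of mice on chow, *Mttp* stood at 333, 477, 321 and 423 CPM in the 4 WT libraries and at 509, 489, 537 and 323 CPM in the 4 KO libraries. On HFD, *Mttp* stood at 301, 268, 274 and 243 CPM in WT and at 254, 259, 278 and 260.1 CPM in KO. Again every HFD library lay below every chow library, and the chow libraries spread more widely than those on HFD. The log2 fold change of *Mttp* was -0.67 ± 0.11 (SE, edgeR adjusted p = 9.6e-05).

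*Apoe* encodes the ligand by which remnant particles bind their clearance receptors. In liver of mice on chow, *Apoe* stood at 4450.2, 5214, 3960.3 and 4144 CPM in the 4 WT libraries and at 5294, 5739, 5259 and 4789 CPM in the 4 KO libraries. On HFD, *Apoe* stood at 6153, 6734, 7128 and 6749 CPM in WT and at 8178, 7826, 7558 and 8983 CPM in KO. Every HFD library lay above every chow library, and within each diet the KO mean was above the WT mean. *Apoe* was 1.52-fold higher on HFD, a log2 fold change of 0.61 ± 0.09 (SE, edgeR adjusted p = 3.7e-05). Its neighbour *Apoc1*, which encodes a small protein that slows the uptake of particles, changed in the same direction. In liver of mice on chow, *Apoc1* stood at 1026, 1089.6, 851 and 807 CPM in the 4 WT libraries and at 1452, 1242, 1130.4 and 1015 CPM in the 4 KO libraries. On HFD, *Apoc1* stood at 1158, 1429.6, 1484 and 1267 CPM in WT and at 1544, 1509.7, 1614 and 1847 CPM in KO. In 5 of 8 HFD libraries *Apoc1* exceeded all chow libraries, and its log2 fold change was 0.46 ± 0.09 (SE, edgeR adjusted p = 0.000741). *Apoc3*, which encodes an inhibitor of lipoprotein lipase and lies in the chromosome 9 cluster, ranged from 343 to 496 CPM on chow (median 409.5) and from 408 to 586 CPM on HFD (median 525), and 6 of 8 HFD libraries exceeded all chow libraries. The log2 fold change of *Apoc3* was 0.33 ± 0.08 (SE, edgeR adjusted p = 0.00513). *Apoc2*, which encodes the cofactor of lipoprotein lipase, was counted at a level far below that of its neighbours, from 1.61 to 3.31 CPM on chow (median 2.21) and from 0 to 1.49 CPM on HFD (median 0.766), and its log2 fold change of -1.40 ± 0.21 (SE, edgeR adjusted p = 5.5e-05) carries the uncertainty of its shared exon bases.

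*Apoa5* encodes a protein that promotes the lipolysis of triglyceride-rich particles. In liver of mice on chow, *Apoa5* stood at 782, 867, 753 and 896 CPM in the 4 WT libraries and at 767, 915, 870.4 and 819.9 CPM in the 4 KO libraries. On HFD, *Apoa5* stood at 545, 340.1, 575 and 529.5 CPM in WT and at 444, 524, 419 and 589 CPM in KO. The HFD libraries all lay below the chow libraries, with a log2 fold change of -0.75 ± 0.10 (SE, edgeR adjusted p = 1.7e-05), the smallest adjusted p of the 10 members. *Apoa4*, which encodes a lipid-binding protein of chylomicrons and high density lipoprotein, had the largest standard error of the 10. In liver of mice on chow, *Apoa4* stood at 731, 1280.2, 2251 and 2119.8 CPM in the 4 WT libraries and at 427, 693, 2029 and 1379 CPM in the 4 KO libraries. On HFD, *Apoa4* stood at 718, 658, 598 and 599 CPM in WT and at 726, 867, 1517 and 512 CPM in KO. The chow libraries of both genotypes spanned several-fold and overlapped those on HFD, where 1 KO library, replicate 3, stood above all others and also held the highest share of ribosomal RNA. The log2 fold change of *Apoa4* was -0.82 ± 0.31 (SE, edgeR adjusted p = 0.0469). It was -0.67 (edgeR adjusted p = 0.130) without chow liver KO replicate 3, and -1.17 (edgeR adjusted p = 0.00325) without the libraries over 20% ribosomal RNA.

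*Apoa1* and *Apoa2*, the main proteins of high density lipoprotein, moved in opposite directions. *Apoa1* ranged from 2793 to 3835 CPM on chow (median 3163) and from 1761 to 2829 CPM on HFD (median 2435), with 7 of 8 HFD libraries below all chow libraries. Its log2 fold change was -0.48 ± 0.10 (SE, edgeR adjusted p = 0.00116). *Apoa2* ranged from 1736 to 3032 CPM on chow (median 2449) and from 2569 to 3492 CPM on HFD (median 2911), with 2 of 8 HFD libraries above all chow libraries. Its log2 fold change was 0.29 ± 0.10 (SE, edgeR adjusted p = 0.0398). Within the chromosome 9 cluster, then, *Apoa1*, *Apoa4* and *Apoa5* were lower and *Apoc3* was higher, while *Apoe* and *Apoc1* of the chromosome 7 cluster were both higher. The hepatocyte markers did not share one direction either, as *Ttr* was higher on HFD (0.54) and *Fgb* (-0.66), *Hpx* (-0.79) and *Ahsg* (-0.28) were lower on the log2 scale. In bulk tissue, fewer cells of a type and less RNA per cell cannot be told apart.

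**Figure D1:**
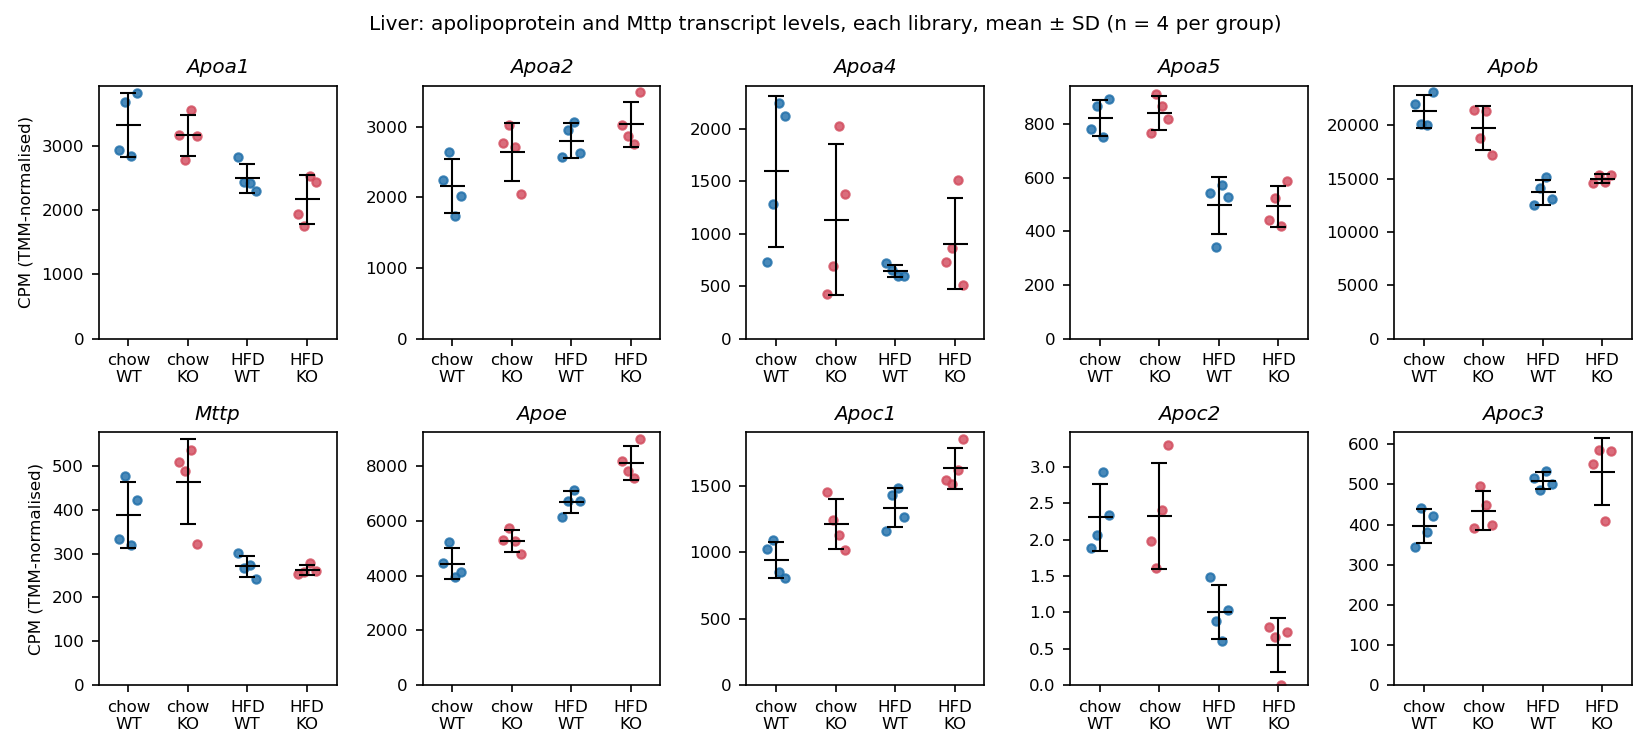
Transcript level (CPM, linear axis from 0) of the 10 members in each of the 16 liver libraries, with the mean and SD of the 4 libraries of each diet and genotype; WT is blue and KO red. The HFD points of *Apoa5*, *Apob*, *Apoc2* and *Mttp* all lie below the chow points and those of *Apoe* all above, while the chow points of *Apoa4* spread from 427 to 2251 CPM.

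Among the members in liver, the long transcripts of *Apob* and *Mttp* were lower and the shortest ones, *Apoa2* and *Apoc1*, were higher. The medians over all genes of such lengths are given beside them. Over all genes with at least 6000 exon bases, as *Apob* and *Mttp* have, the median log2 fold change on HFD was -0.040 (4218 genes, quartiles -0.22 and 0.16). Over genes below 750 bases, as *Apoa2* and *Apoc1* have, it was -0.043 (542 genes, quartiles -0.35 and 0.30). Offsets for length and GC content in each library were added after seeing the data. With them *Apob* had a log2 fold change of -0.42 (-0.52 without), *Mttp* of -0.63 (-0.67), *Apoc1* of 0.37 (0.46) and *Apoe* of 0.43 (0.61). All 10 members were called with the offsets, a count given without the share of all genes under them. The part of transcript length in the diet results was not tested.

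To determine whether *Fam13a* deficiency altered these genes in liver, KO was compared with WT over both diets. None of the 10 members passed the FDR of 10% in edgeR, as was the case for all genes tested (0 of 14476 called, 0%, with 1416 at an unadjusted p under 0.05). At an unadjusted p under 0.05 were 2 members, *Apoc1* and *Apoe*. The log2 fold change of KO over WT was 0.32 ± 0.09 for *Apoc1* (SE, edgeR adjusted p = 0.311) and 0.26 ± 0.09 for *Apoe* (SE, edgeR adjusted p = 0.371). On HFD the 4 KO libraries of each of these genes lay above the 4 WT libraries, and on chow they overlapped. The share of all genes that separate in this way was not determined, so this describes these 2 genes only. On HFD alone neither was called (edgeR adjusted p = 0.602 for *Apoc1* and 0.599 for *Apoe*). Over both diets, DESeq2 in place of edgeR called both, with an adjusted p of 0.0559 for *Apoc1* and 0.0216 for *Apoe*, among 91 genes in all. There limma-voom called no member. The other 8 members had log2 fold changes between -0.20 (*Apoc2*) and 0.20 (*Apoa2*), all within 2 standard errors of 0.

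The diet effect was then set out by genotype. In WT, all 10 members were called (30.0% of all genes were), and in KO 7 of 10 (21.6% of all genes), with *Apoa2*, *Apoa4* and *Apoc3* not past the FDR. A call in one genotype only does not show a difference, and the interaction of diet and genotype called 0 of 10 members and 0% of the 14476 genes in edgeR, with 0 members and 928 genes at an unadjusted p under 0.05. DESeq2 and limma-voom also called 0 members for the interaction. The largest interaction of the 10 in size was that of *Apoa4*, with a log2 fold change of -1.31 ± 0.41 in WT and -0.33 ± 0.41 in KO (SE), an interaction of 0.98 ± 0.57 (SE, edgeR adjusted p = 0.813). For *Mttp* the values were -0.52 in WT and -0.82 in KO, and for *Apob* -0.64 and -0.40. For *Apoe* they were 0.59 and 0.63, and for *Apoa5* -0.73 and -0.77. The sign of the diet effect was the same in both genotypes for each of the 10 members.

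**Figure D2:**
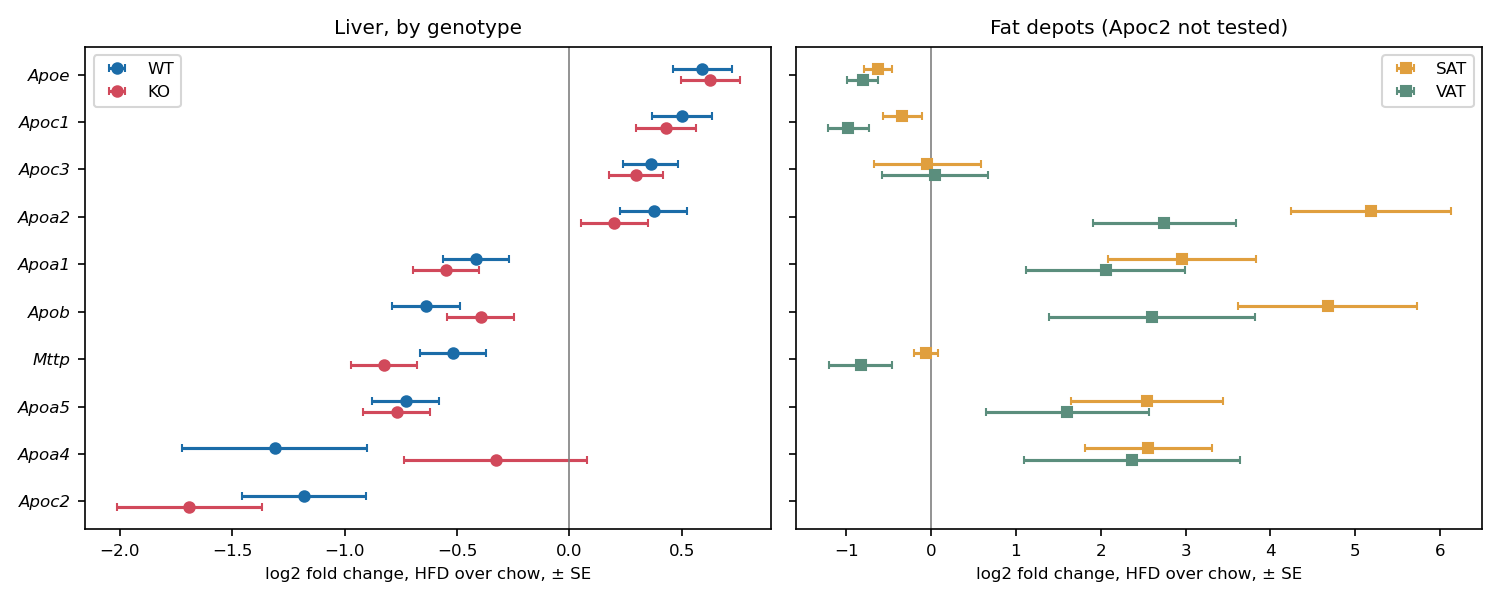
Log2 fold change of HFD over chow with its standard error, for the 10 members in liver of WT and KO males (left) and in SAT and VAT (right, where *Apoc2* was not tested). In liver both genotypes fall on the same side of 0 for every member, with the widest gap for *Apoa4*. In both fat depots *Apoa1*, *Apoa2*, *Apoa4*, *Apoa5* and *Apob* lie to the right of 0. *Apoe*, *Apoc1* and *Mttp* lie to the left, each further in VAT than in SAT.

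Other genes of lipoprotein metabolism in the same liver comparison did not move as one block. Of 9 other apolipoproteins tested, 1 was higher on HFD, *Saa4* (log2 fold change 1.55), and 4 were lower, *Apom* (-0.66), *Apon* (-0.38), *Apoc4* (-0.33) and *Apof* (-0.27). *Apoc4* lies next to *Apoc2* in the chromosome 7 cluster and went down while *Apoe* and *Apoc1* went up. Of 14 genes of particle assembly and secretion, 3 were higher and 5 lower. *Dgat2* (0.97), which makes triglyceride, *A1cf* (0.47), a cofactor of *Apob* mRNA editing, and *Cideb* (0.21) were higher, and *Dgat1* (-0.34), *Tm6sf2* (-0.29), *Pla2g12b* (-0.25) and *Mia3* (-0.17) were among the lower ones. Among receptor and uptake genes, *Vldlr* (1.71) and *Lrp1* (0.50) were higher and *Sdc1* (-0.73) and *Sort1* (-0.37) lower. Of 8 genes of plasma lipolysis, *Angptl8* (0.65), *Lipg* (0.50) and *Lmf1* (0.47) were higher and *Angptl4* (-0.73) lower, and of 5 genes of high density lipoprotein formation *Scarb1* (0.41) and *Lcat* (0.16) were higher. Of 15 transcription factors, 7 were higher, among them *Srebf1* (2.42), *Ppara* (0.41), *Rxra* (0.33) and *Foxa2* (0.58), and 2 were lower, *Nr5a2* (-0.23) and *Hnf4a* (-0.28). Macrophage markers were higher for 1 and lower for 4 of 10, and their summed level ranged from 226 to 288 CPM on chow and from 157 to 241 CPM on HFD. Kupffer cell markers were higher for 0 and lower for 3 of 4, with a sum of 142 to 196 CPM on chow and 98.5 to 213 CPM on HFD. By genotype 3 of the 4 were lower in KO and 0 in WT, and the interaction of diet and genotype called 0 of 4. The part of these cells in the diet results of the members was not tested.

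Across the 16 liver libraries, each member was set beside the gene whose log2 CPM followed it most closely, as a description in which diet, and hence lane, is shared by all points. *Apoe* was followed by *Isoc1* (Pearson r of 0.98 over 16 libraries), *Apob* by *Serinc1* (0.98), *Mttp* by *Hadha* (0.97), *Apoc1* by *Maob* (0.96) and *Apoc2* by *Fkbp15* (0.96). *Apoc3* was followed by *Tmem250-ps* (0.95), *Apoa2* by *Pex7* (0.94), *Apoa5* by *Ikbkg* (0.93), *Apoa4* by *Cidec* (0.90) and *Apoa1* by *Msrb3* (0.88).

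In fat, *Apoe* was the one abundant member. In WT males it stood at 1556 ± 462 TPM in SAT and 2723 ± 438 TPM in VAT on chow (SD, n = 4), first of the 10 in both depots. *Apoc1* came second, at 126 ± 30.5 TPM in SAT and 211 ± 36.8 TPM in VAT, without overlap with *Apoe*. *Mttp*, at 2.77 ± 0.522 and 4.74 ± 1.50 TPM, was low in both depots. The other 7 members averaged at most 2.12 TPM in SAT and 11.1 TPM in VAT of these mice. *Apoc2* was hardly counted in fat and was not tested there. The 10 members together held 0.122% to 0.297% of all TPM on average in a fat group.

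Relative to liver of mice on the same diet, the members fell into groups by level. Of the 30 fat libraries on HFD 14 came from females, while all liver libraries came from males. In these 30, *Apoe* stood at 9.65% to 19.6% of its liver TPM (median 13.7%), *Apoc1* at 0.903% to 4.61% (median 2.42%) and *Mttp* at 1.01% to 8.43% (median 2.14%). *Apoa1* reached a median of 0.110% and at most 0.718%, *Apoa2* 0.0975% and 0.583%, *Apob* 0.0934% and 0.655%, *Apoa4* 0.0794% and 0.656%, *Apoa5* 0.0912% and 0.609%, and *Apoc3* 0.185% and 0.556%. The hepatocyte markers lay in that same low range, with medians of 0.123% for *Alb*, 0.0753% for *Ttr*, 0.140% for *Ahsg*, 0.143% for *Fgb* and 0.299% for *Hpx*. The percentage of *Apob* divided by that of *Alb* in the same library had a median of 0.795 and ranged from 0.0264 to 1.57, while that of *Apoe* divided by that of *Alb* ranged from 22.3 to 421. In HFD VAT WT replicate 2, which had the most *Apob*, *Apob* stood at 0.655% and *Alb* at 0.633% of the liver level. Over all 46 fat libraries, chow included, the percentages reached higher for *Apoe*, up to 55.3% (median 16.3%), for *Apoc1*, up to 8.89%, and for *Apoc3*, up to 1.01%.

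**Figure D3:**
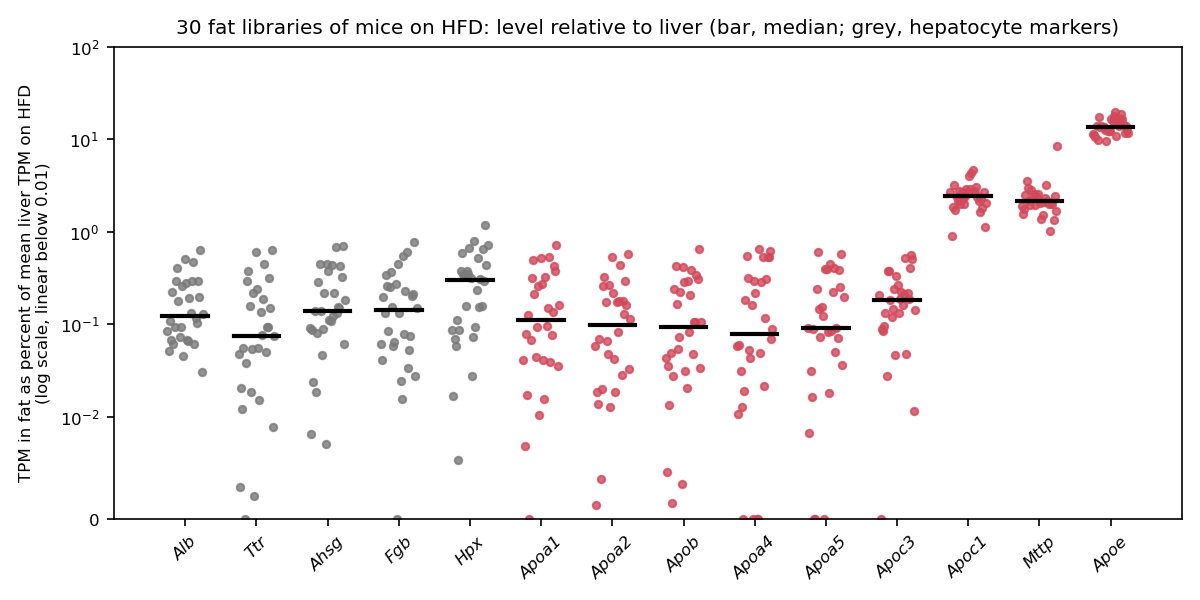
Level in each of the 30 fat libraries of mice on HFD (14 from females) as a percentage of the mean TPM in liver of males on HFD (log axis, linear below 0.01), for 5 hepatocyte markers (grey) and 9 members (red), with the median as a bar. *Apoa1*, *Apoa2*, *Apob*, *Apoa4*, *Apoa5* and *Apoc3* reach at most 0.718%, within the range of the hepatocyte markers, while *Apoc1* and *Mttp* have medians of 2.42% and 2.14% and *Apoe* of 13.7%.

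On HFD, *Apoe* was lower in both fat depots of males, whereas it was higher in liver, a difference between tissues that was not tested. In SAT of males, *Apoe* ranged from 835 to 1968 CPM on chow (median 1369) and from 631 to 1015 CPM on HFD (median 897), with 3 of 8 HFD libraries below all chow libraries. Its log2 fold change was -0.63 ± 0.16 (SE, edgeR adjusted p = 0.00459). In VAT it ranged from 814 to 2288 CPM on chow (median 1638) and from 629 to 1303 CPM on HFD (median 899), with 2 of 8 HFD libraries below all chow libraries, and its log2 fold change was -0.81 ± 0.18 (SE, edgeR adjusted p = 0.0012). *Apoc1* was lower in VAT, with 16.1 to 91.2 CPM on chow and 13.0 to 38.8 CPM on HFD and a log2 fold change of -0.97 ± 0.25 (SE, edgeR adjusted p = 0.00341). In SAT its log2 fold change was -0.34 ± 0.23 (SE, edgeR adjusted p = 0.233). Markers of macrophages, which make Apoe, moved the other way in VAT, where 10 of 10 were higher on HFD and their summed level in males went from 615 to 1822 CPM on chow to 2588 to 7155 CPM on HFD. Adipocyte markers were higher for 1 and lower for 5 of 6 in VAT, and higher for 4 of 6 in SAT. Their part in the *Apoe* result was not tested.

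*Mttp* in VAT was lower on HFD, with a log2 fold change of -0.83 ± 0.37 (SE, edgeR adjusted p = 0.0807). On chow it stood at 13.9, 8.97, 11.1 and 5.28 CPM in WT and 22.2, 3.17, 4.44 and 8.92 CPM in KO, and on HFD at 3.63, 6.29, 3.48 and 16.3 CPM in WT and 5.08, 2.52, 4.34 and 4.21 CPM in KO. The highest value belonged to chow VAT KO replicate 1, whose markers of the epididymis (*Crisp1*, *Adam7* and *Lcn8*) summed to 9735 CPM, and chow VAT WT replicate 2 had 3390 CPM of them against at most 5.87 CPM in VAT of males on HFD. Without these 2 libraries *Mttp* had a log2 fold change of -0.42 (edgeR adjusted p = 0.316), and it was -0.40 (adjusted p = 0.306) without chow VAT KO replicate 1 alone. In SAT, *Mttp* differed by -0.06 ± 0.14 (SE, edgeR adjusted p = 0.726).

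**Figure D4:**
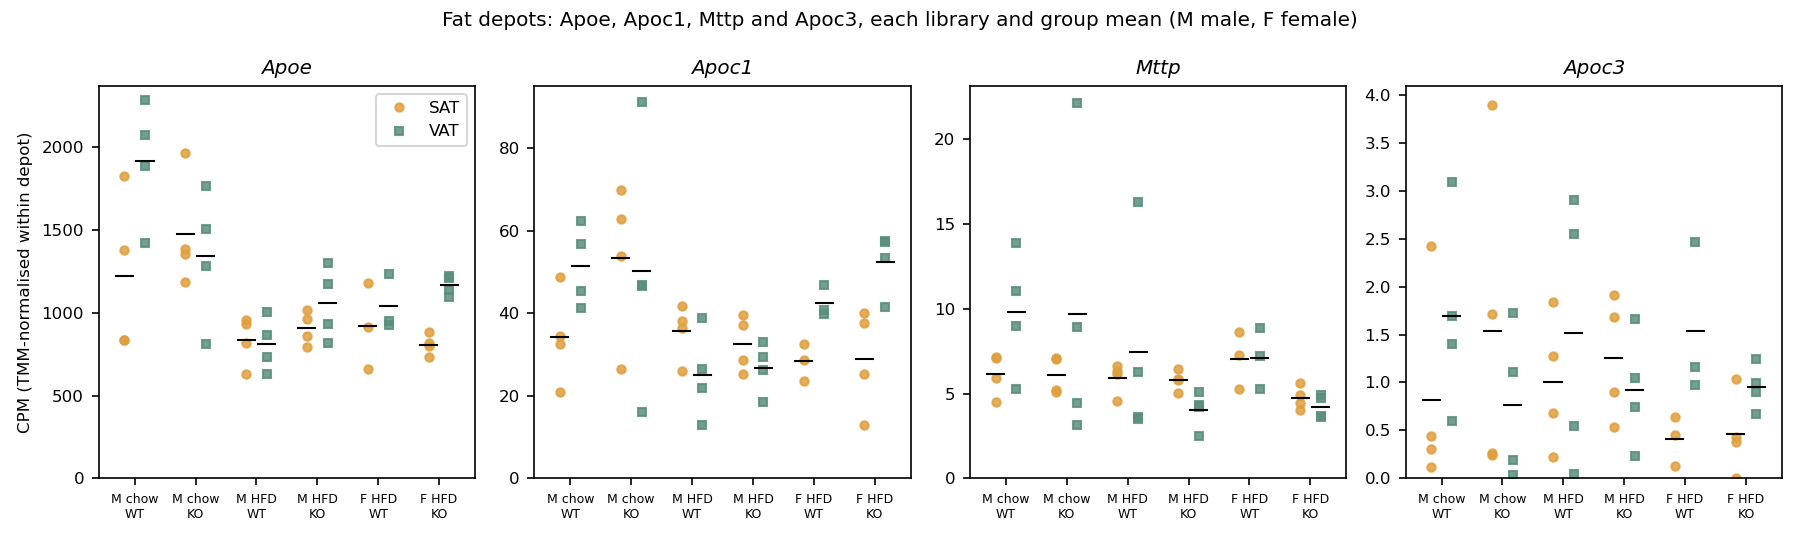
Level (CPM) of the members *Apoe*, *Apoc1*, *Mttp* and *Apoc3* in each fat library by sex, diet and genotype, with SAT as circles and VAT as squares and the mean of each group as a bar. *Apoe* of males is higher on chow, between 835 and 1968 CPM in SAT, than on HFD, between 631 and 1015 CPM, with overlap.

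*Apoa1*, *Apoa2* and *Apob* were higher on HFD in both fat depots, and *Apoa4* and *Apoa5* in SAT, all at levels far below those in liver. In SAT, 6 of 9 members tested were called, *Apoa1*, *Apoa2*, *Apoa4*, *Apoa5* and *Apob* higher (28.0% of 18366 genes were called higher) and *Apoe* lower (29.4% were called lower). In VAT, 6 of 9 were called as well, *Apoa1*, *Apoa2* and *Apob* higher (21.8% of 18975 genes) and *Apoe*, *Apoc1* and *Mttp* lower (25.1%). *Apob* in SAT stood at 0, 0, 0 and 0.632 CPM in WT and 0.124, 7.91, 0.0410 and 0.0521 CPM in KO on chow. On HFD it stood at 9.23, 32.5, 0.442 and 63.8 CPM in WT and 33.97, 51.7, 22.4 and 6.50 CPM in KO. Thus 6 of 8 HFD libraries exceeded all chow libraries, but HFD SAT WT replicate 3 and KO replicate 4 lay below chow SAT KO replicate 2, the chow library with the most hepatocyte marker counts in SAT. The log2 fold change of *Apob* in SAT was 4.68 ± 1.05 (SE, edgeR adjusted p = 0.00146) and that of *Apoa2* 5.18 ± 0.94 (SE, edgeR adjusted p = 0.000246). *Apoa1* (2.95), *Apoa4* (2.56) and *Apoa5* (2.54) followed on the log2 scale. *Apoc3* differed by -0.04 ± 0.63 in SAT and 0.05 ± 0.62 in VAT (SE, edgeR adjusted p = 0.964 and 0.964).

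In VAT, *Apob* stood at 3.78, 65.9, 0.154 and 0 CPM in WT and 0, 0.191, 0.0793 and 0 CPM in KO on chow. On HFD it stood at 44.5, 90.8, 3.71 and 10.9 CPM in WT and 6.49, 14.2, 11.8 and 38.4 CPM in KO. Chow VAT WT replicate 2 thus exceeded 7 of the 8 libraries on HFD, and the other 7 chow libraries were at or under 3.78 CPM. The log2 fold change was 2.60 ± 1.22 for *Apob*, 2.75 ± 0.84 for *Apoa2* and 2.06 ± 0.93 for *Apoa1* (SE, edgeR adjusted p = 0.0952, 0.0128 and 0.0856). *Apoa4* had 2.37 and *Apoa5* 1.61 (edgeR adjusted p = 0.148 and 0.194). Without the 2 libraries with epididymis markers, 7 members were called, a count given here without the share of all genes under that omission (46.9% with all libraries). Higher were *Apob* at 5.22, *Apoa4* at 5.15, *Apoa2* at 4.46, *Apoa1* at 3.70 and *Apoa5* at 3.42, and lower were *Apoc1* at -1.17 and *Apoe* at -0.96. Without chow VAT WT replicate 2 alone, *Apob* had 5.54, and the call on *Apob* was lost with any of 17 of the 23 libraries left out.

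Hepatocyte markers moved with these 5 members. In SAT of males, the 5 hepatocyte markers summed to 8.75 to 37.9 CPM on chow and 22.5 to 259 CPM on HFD, and in VAT to 3.17 to 144 CPM on chow and 17.8 to 307 CPM on HFD. All 5 were higher on HFD in each depot, for example *Ttr* by 5.08 in SAT and 3.33 in VAT and *Alb* by 2.42 and 2.13 on the log2 scale. Chow VAT WT replicate 2, the chow library with the most *Apob*, had the 144 CPM. Of the other apolipoproteins, 5 of 7 tested were higher in SAT, *Apoh* (4.30), *Saa4* (3.12), *Apof* (1.91), *Apoc4* (1.25) and *Apon* (1.76), and *Clu* (-2.25) was lower. In VAT 3 of 8 were higher, *Saa4* (2.73), *Apon* (2.07) and *Apoc4* (1.43), and *Clu* (-1.75) was lower. When the score of the hepatocyte markers was added to the model, a choice made after seeing the data, 0 members were called for diet in SAT by edgeR (6 without it), and in VAT 2, *Apoe* at -0.74 and *Apoc1* at -1.12. *Apoe* in SAT then had -0.74 (edgeR adjusted p = 0.157). The share of all genes called with the score is not given here, so the counts of 0 and 2 describe the members only. Because these markers were themselves higher on HFD, the score moves with diet, and a call lost with it does not tell diet and score apart. The part of hepatocyte transcripts in these results was not tested. Lymphocyte markers also moved in SAT, where 4 of 4 were lower on HFD, with a sum of 3.84 to 391 CPM on chow and 2.36 to 143 CPM on HFD in males. Skeletal muscle markers were lower on HFD for 2 of 3, and chow SAT KO replicate 1 held 17704 CPM of them, against 51.3 to 737 CPM in the other 7 chow SAT libraries. Without that library 6 members were called for diet in SAT, as with it, *Apob* having a log2 fold change of 4.50. This count is given without the share of all genes under that omission. Macrophage markers were higher on HFD for 4 of 10 in SAT. The part of these cell types was not tested.

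**Figure D5:**
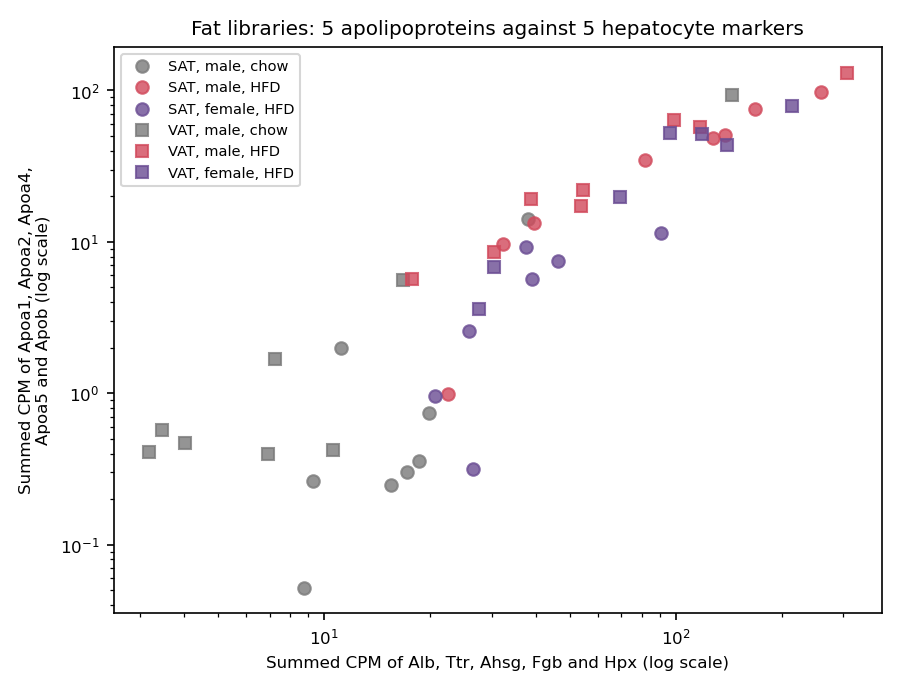
Summed CPM of *Apoa1*, *Apoa2*, *Apoa4*, *Apoa5* and *Apob* against the summed CPM of 5 hepatocyte markers in the 46 fat libraries (both axes log), by depot, sex and diet. The chow VAT library at 144 CPM of markers stands among those on HFD, at 92.9 CPM of the 5 members.

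Females on HFD had less of the same members than males in SAT. Of 9 members tested, *Apoa1*, *Apoa2*, *Apoa4*, *Apoa5* and *Apob* were lower in females (9.89% of all genes were called lower), with log2 fold changes from -3.10 (*Apob*, edgeR adjusted p = 0.0444) to -2.40 (*Apoa1*, edgeR adjusted p = 0.0782). *Apob* stood at 6.39, 0.211 and 3.55 CPM in WT and 5.88, 0.641, 4.65 and 1.64 CPM in KO females, overlapping the male values. Of the 5 hepatocyte markers 3 were lower in females too, and their sum was 20.6 to 90.8 CPM, against 22.5 to 259 CPM in males. Macrophage markers were lower in females for 8 of 10 in SAT, with a sum of 520.3 to 1217 CPM against 901 to 2083 CPM in males on HFD, and their part in the result was not tested. Without HFD SAT WT replicate 4 of the males, 2 members were called. With the hepatocyte marker score as a covariate 0 were called, but markers of that score were themselves lower in females, so sex and score are not told apart. Both counts are given without the share of all genes under that omission or covariate, and describe the members only. In VAT, 1 member was higher in females, *Apoc1* (16.6% of all genes were called higher), at a log2 fold change of 0.89 ± 0.25 (SE, edgeR adjusted p = 0.0139). *Apoc1* in VAT of females on HFD stood at 46.9, 40.0 and 40.9 CPM in WT and 53.5, 41.4, 57.6 and 57.4 CPM in KO, all above the highest male library on HFD at 38.8 CPM. In the same comparison 10 of 10 macrophage markers were lower and 5 of 6 adipocyte markers higher in females.

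No member was called for genotype in fat. In edgeR, 0 of 9 members tested were called for KO against WT in SAT (4.33% of all genes), in VAT (0.00527%) and in both depots of males (3.97%). At an unadjusted p under 0.05 were 0, 3 and 0 members, against 3266 of 18366, 1598 of 18975 and 3158 of 18561 genes. The 3 in VAT were *Apoa1*, *Apoa2* and *Apob*, with a log2 fold change of KO over WT of -2.23 ± 1.05 for *Apob* (SE, edgeR adjusted p = 0.582), while the 5 hepatocyte markers had a median of -1.60. DESeq2 and limma-voom also called 0 members for genotype in SAT, in VAT and in males. The fit of both depots of males took its 32 libraries as independent. If both depots came from the same mouse, which the labels do not tell, its genotype p-values may be too small. Between VAT and SAT of males 0 of 9 members were called (35.1% of all genes were), and DESeq2 and limma-voom called 0 too. At an unadjusted p under 0.05 in edgeR were 0 members and 7175 of 18561 genes. Without the 2 libraries with epididymis markers 1 member was called, *Apoe*, a count given without the share of all genes under that omission.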

How the data were processed

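RNA-seq was performed on liver, SAT and VAT with a stranded poly(A) library kit, and reads were aligned to mm10 with STAR (version 2.5.3a in the submitters' processing notes) and Gencode annotation. The authors deposited 1 table of raw counts per gene, not normalized, for 62 libraries. Groups were taken from the labels, and no deposited column was left without a sample. The members and the lists of other genes were chosen with earlier results of these data known.

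Counts were tested with the quasi-likelihood test of edgeR (version 4.0.16, R 4.3.3), with TMM scaling, edgeR's expression filter by group and Benjamini-Hochberg adjustment over all genes tested, at an FDR of 10%. The models were diet and genotype in liver, with their interaction in a second model, diet, sex and genotype in each fat depot, and diet, depot and genotype in male fat. Standard errors were derived from the F statistic. TPM used merged exon lengths, with the row of nuclear ribosomal RNA left out of their sum. P-values set a difference against the spread between these libraries. Where lane went with diet or sex, that difference includes any effect of lane. The study's hidden-factor and RNA integrity covariates were not used. DESeq2 (1.42.0), limma-voom (limma 3.58.1), other scalings, filters and thresholds, and left-out libraries were alternatives. Offsets for length and GC content, hepatocyte and epididymis marker scores and the omission of 2 epididymis-rich libraries were added after seeing the data. All members were named, and of each list at most 4 genes called in each direction, by smallest p, with 1 closest gene per member. One gene of the receptor and uptake list is not reported here, so that list is given without counts. The fitting script was tested on simulated data. Python 3.11.15, pandas 2.3.3 and matplotlib 3.10.9 were used.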

Additional observations from a re-analysis of the deposited data

Results flagged for a closer look

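In 19 of 133 sets of a member and a group that could be checked, 1 library stood apart from the other 3 by Dixon's test at the 95% level. Chance gives this in about 1 in 20 sets of normally spread values, a rate that does not hold for counts near 0. A set with 3 libraries at 0 and 1 above it is flagged whatever the value, so the 19 cannot be read as an excess. All 19 were in fat, 15 of them in males on chow. In chow SAT KO replicate 2, *Apoa1* stood at 3.32 CPM, *Apoa2* at 0.802 CPM, *Apoa4* at 0.917 CPM, *Apoa5* at 1.15 CPM and *Apob* at 7.91 CPM, the hepatocyte markers of this library summing to 37.9 CPM. In chow SAT WT replicate 4, *Apoa1* stood at 0.949 CPM, *Apob* at 0.632 CPM and *Apoc3* at 2.42 CPM. In chow VAT WT replicate 2, *Apoa1* stood at 13.0 CPM, *Apoa2* at 6.63 CPM, *Apoa4* at 4.58 CPM, *Apoa5* at 2.87 CPM and *Apob* at 65.9 CPM, beside 144 CPM of hepatocyte markers and 3390 CPM of epididymis markers. In chow VAT KO replicate 3, *Apoa2* stood at 0.238 CPM, and in HFD VAT KO replicate 4 of the males *Apoa5* stood at 1.49 CPM. *Apoc2* was above 0 in 1 library of 4 of these groups, at 0.0341 CPM in female HFD SAT KO replicate 4, 0.0467 CPM in chow VAT WT replicate 4, 0.0459 CPM in male HFD SAT WT replicate 4 and 0.0354 CPM in male HFD VAT KO replicate 4. Each of these values rests on 1 read.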

How the results depend on the processing

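Of 3594 values of single members under all alternatives, 3472 kept their direction or, where not called, their side of the threshold, 103 lost a call, 15 gained one and 4 reversed. Among the 3472, 238 values that were not called changed sign. The 4 arose with the hepatocyte marker score as a covariate, added after seeing the data: diet effects in SAT of -1.56 for *Apoa1* (edgeR adjusted p = 0.189), -1.23 for *Apoa4* (0.474) and -1.15 for *Apoa5* (0.484), and in VAT of -0.93 for *Apoa1* (0.255). With this covariate the number of members called for diet was 0 in SAT (6 without it) and 2 in VAT (6), and for sex in SAT 0 (5). The score itself moves with diet and with sex in SAT, so these lost calls do not tell them apart. With at least 10 counts in every library it was 1 for diet in SAT, 3 for diet in VAT and 0 for sex in SAT, where fewer members could be tested. The count for sex in SAT was 3 with no filter on low counts, at an FDR of 5%, with limma-voom and without libraries over 20% ribosomal RNA. The count for diet in VAT was 3 with no filter, at an FDR of 5%, without libraries over 20% ribosomal RNA and without the library of the other flow cell. DESeq2 called 2 members for genotype in liver (0 in edgeR), and 1 member was called between depots without the 2 epididymis-rich libraries (0 with them). By CPM in place of TPM, *Apob* ranked 1 in WT liver on chow rather than 4. For these alternatives the share of all genes called is not given, so the counts describe the members only. The cause of these changes was not tested.

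With 1 library left out in turn, the members called for diet numbered 9 to 10 in liver, 6 to 7 in SAT and 3 to 8 in VAT, for sex 2 to 5 in SAT and 1 in VAT, and between depots 0 to 1. Diet in VAT fell to 3 without chow KO replicate 1 or 4, chow WT replicate 1 or 3, HFD KO replicate 3 or 4, or HFD WT replicate 1 or 2. The diet call in VAT was lost for *Mttp* with 13 and for *Apoa1* with 12 of the 23 libraries left out singly, and the sex call in SAT for *Apoa1* with 11 and *Apoa5* with 7. Sex in SAT fell to 2 without male HFD WT replicate 4, and to 3 without female KO replicate 2, 3 or 4, female WT replicate 2 or 3, or male HFD KO replicate 2. *Apoe* was called between depots without chow VAT KO replicate 1. No paired analysis was possible because the labels give no replicate numbers that tie libraries of different groups together. Counting depth limits *Apoa1*, *Apoa2*, *Apoa4*, *Apoa5* and *Apob* in fat, which had 0 reads in 3 to 9 of the 23 SAT libraries, and *Apoc2* throughout.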
